A study of Mus musculus with 18 samples.

Results

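A growing oocyte makes far more mRNA than it translates. Much of this mRNA is packed with RNA-binding proteins and kept with a short poly(A) tail until meiotic maturation, when cytoplasmic polyadenylation, cap binding and deadenylation decide which messages are used and which are cleared. The 8 genes described here encode proteins of that system: Zar1 and Zar1l, zygote arrest proteins that bind and store maternal mRNA; Ybx2, a Y-box protein that coats and stabilises oocyte mRNA; Cpeb1, which binds the cytoplasmic polyadenylation element; Eif4e1b, the oocyte form of the cap-binding protein; Lsm14b and Patl2, components of repressed messenger ribonucleoprotein particles; and Btg4, an adaptor that brings the CCR4-NOT deadenylase to maternal mRNA. They were listed by gene name for this function, with earlier results of these data known. All 8 were found among the 30172 gene symbols of the deposited files.

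Whole ovaries of wild type F1 females on a C57BL/6J background were collected at postnatal day 3 (Pd3), 7 (Pd7) or 21 (Pd21). Their dams had eaten either normal chow (F1-Control) or a diet with 3% methionine by weight, given to raise maternal homocysteine (F1-HHcy), from before mating until weaning, and the pups themselves were not treated. Each of the 6 groups had 3 libraries of poly(A)-selected RNA, 18 in all. The labels do not say whether a library held the ovaries of 1 pup or of several, or which pups were littermates, so p-values measure the spread between these libraries. Pd3 and Pd7 carry batch label 1 and Pd21 carries batch label 2, so the step from Pd7 to Pd21 and the batch cannot be told apart.

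Levels are given in FPKM, fragments assigned to a gene scaled by its transcript length and by the fragments on all genes of the library, which allows levels of different genes to be set side by side. Libraries held between 33630304 and 39398922 fragments on genes. Within the members, fragment numbers were lowest for Zar1l in F1-Control at Pd3, at 12 to 52 fragments, and reached 15310 for Lsm14b. Diet effects are log2 fold changes of FPKM + 1, F1-HHcy over F1-Control, with the standard error (SE) and p from limma, and the adjusted p is Benjamini-Hochberg over all genes tested. A gene was called when its unadjusted p was under 0.05 and its log2 fold change was above 0.58 in size. In whole ovaries, fewer oocytes and less RNA per oocyte cannot be told apart.

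The libraries held oocyte and somatic markers on every day, and several marker lists moved with the diet. At Pd3, 6 of 10 growing oocyte markers were called higher in F1-HHcy and 1 lower (Kit), with a summed level of 1133 to 1673 FPKM in F1-Control and 2010 to 2918 FPKM in F1-HHcy. At Pd7 the same list went the other way, with 2 called higher (Bmp15 and Oosp1) and 6 lower (Zp2, Zp3, Nlrp5, Ooep, Padi6 and Kit), and a summed level of 2370 to 3845 FPKM in F1-Control and 1410 to 2195 FPKM in F1-HHcy. Of 9 germ cell and primordial oocyte markers tested, 0 were called higher and 3 lower at Pd3, and all 9 were called lower at Pd7. Somatic lists also moved: at Pd3, 3 of 6 tested granulosa, 2 of 4 tested theca and 5 of 6 stromal markers were called higher, and 7 of 7 erythroid markers lower. At Pd7, 6 of 9 granulosa and 7 of 8 theca markers were called higher, and 5 of 5 tested erythroid markers and 1 of 6 stromal markers (Dcn) lower. Dcn was also called lower at Pd21. At Pd21, 6 of 6 tested multiciliated cell markers were called lower in F1-HHcy and no oocyte marker was called. The part of these differences in the members' results was not tested. Replicate 3 of F1-HHcy at Pd3 stood nearest to the controls for all 8 members, and values without it are given below. Leaving it out enlarged every Pd3 diet effect, so values with other libraries left out are given as well.

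At Pd3 the members moved in opposite directions. Zar1, Eif4e1b, Btg4 and Patl2 were higher in F1-HHcy ovaries, by 2.97-fold to 7.07-fold as ratios of mean FPKM, and Ybx2 and Lsm14b were lower. Zar1l was also higher, by 10.8-fold from a control mean of 0.672 FPKM. It entered the test only through F1-HHcy, since 0 control libraries and 3 F1-HHcy libraries reached 1 FPKM. Of the 8 members, 5 (Zar1l included) were called higher and 2 lower, where 5% and 4.74% of the 13277 genes tested were called higher and lower. The 2 groups of libraries did not overlap for 7 members, against 27.9% of all genes tested, and 3 members had an adjusted p under 0.05, against 3.07% of all genes tested. The median log2 fold change of the members was 1.23, beside -0.03 over all genes tested. Zar1l is also counted in this median and among the 7 members without overlap.

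**Figure D1:**
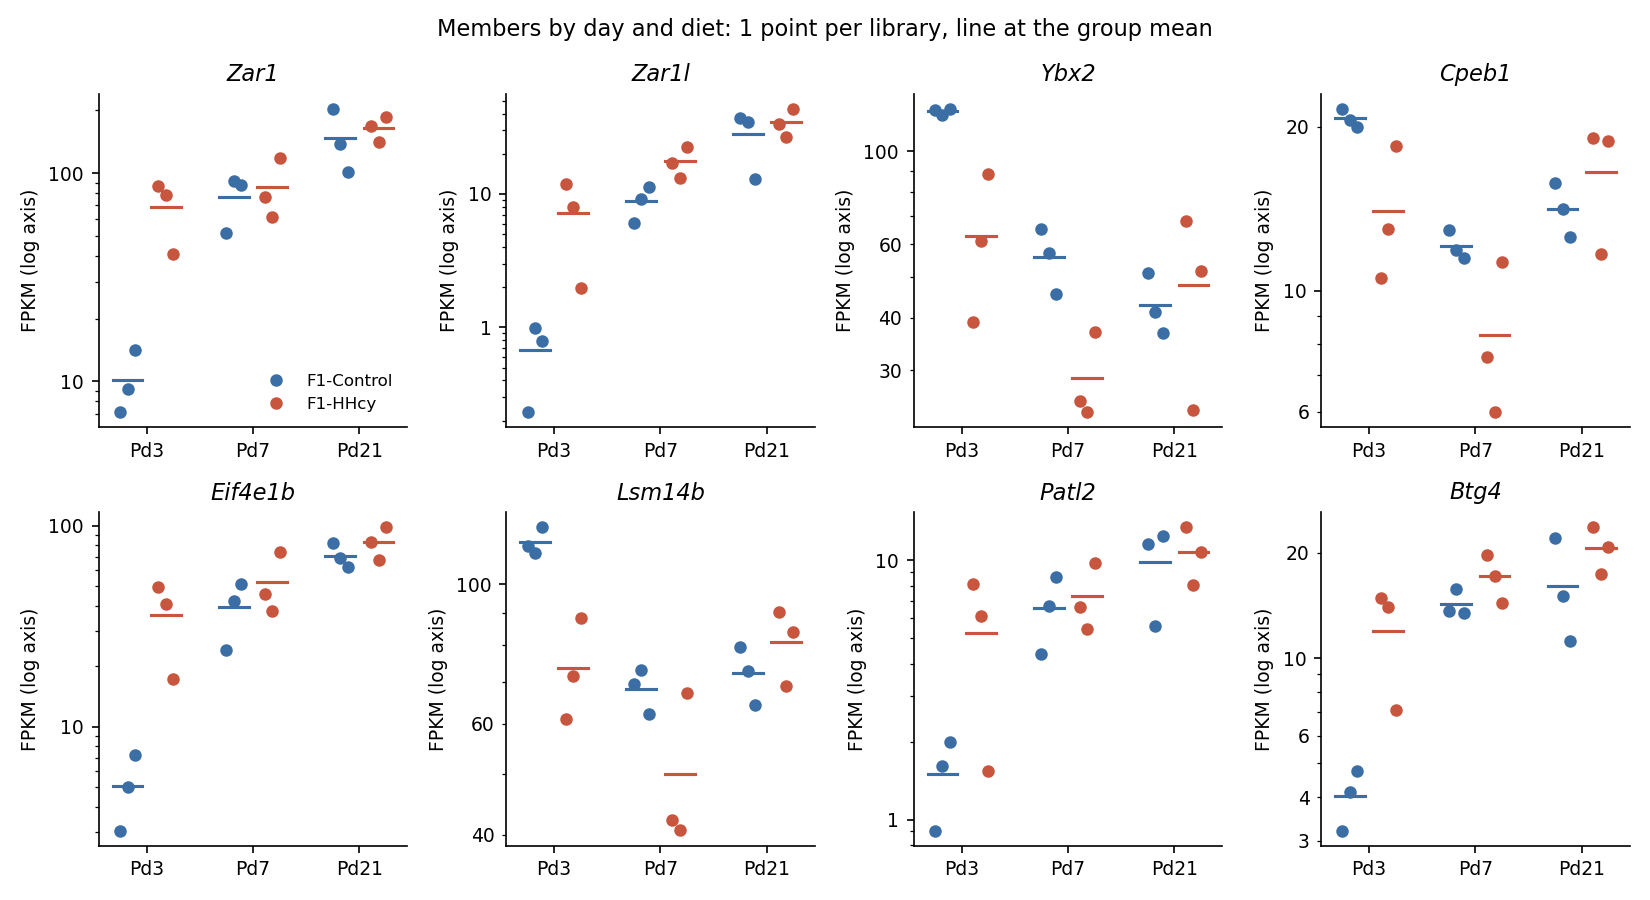
FPKM of the 8 members (log axis, 1 panel per gene) by day, with 1 point per library, F1-Control in blue and F1-HHcy in red, and a line at each group mean of 3 libraries. At Pd3 the F1-HHcy points of Zar1, Zar1l, Eif4e1b and Btg4 all lie above the F1-Control points and those of Ybx2, Lsm14b and Cpeb1 all lie below them, while at Pd21 the points of the 2 diets overlap for every member.

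Zar1 showed the clearest rise. It stood at 7.12, 9.17 and 14.1 FPKM in the F1-Control libraries and at 86.8, 78.5 and 40.8 FPKM in the F1-HHcy libraries at Pd3. The lowest F1-HHcy library was well above the highest control. The log2 fold change was 2.62 (SE 0.32, limma, adjusted p = 0.0175). It ran from 2.42 to 2.96 with each library left out in turn, and was highest without F1-HHcy replicate 3. The gene lies on chr5:72576806-72581254 (GRCm38, minus strand).

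Zar1l, the paralogue of Zar1 on the same chromosome (chr5:150507055-150518164, GRCm38, minus strand), started from a lower level. The F1-Control libraries at Pd3 held 0.232, 0.988 and 0.795 FPKM and the F1-HHcy libraries 11.8, 7.92 and 1.98 FPKM. The groups did not overlap, and the lowest F1-HHcy value was again that of replicate 3. The log2 fold change was 2.09 (SE 0.50, limma, adjusted p = 0.0665). With each library left out in turn it ran from 1.65 to 2.71, the latter without replicate 3. Since 0 control libraries and 3 F1-HHcy libraries reached 1 FPKM, Zar1l entered the Pd3 test only through the group in which it was high.

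Eif4e1b (chr13:54783998-54788459, GRCm38, plus strand) followed Zar1 closely. Its Pd3 levels were 3.04, 5.0 and 7.18 FPKM in F1-Control and 49.4, 40.9 and 17.3 FPKM in F1-HHcy. The control range ended well below the F1-HHcy range, with a log2 fold change of 2.54 (SE 0.40, limma, adjusted p = 0.0285). Leaving out each library in turn gave 2.25 to 2.98, the latter without F1-HHcy replicate 3. The study displayed this gene among those it picked from these Pd3 libraries, so its direction there is not independent evidence.

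Btg4 (chr9:51060901-51119875, GRCm38, plus strand) also rose at Pd3. The 3 control libraries were close together, at 3.21, 4.14 and 4.75 FPKM, and the F1-HHcy libraries held 14.9, 14.0 and 7.08 FPKM. Its log2 fold change was 1.32 (SE 0.27, limma, adjusted p = 0.0475). With each library left out in turn it ran from 1.14 to 1.63, the latter without replicate 3 of F1-HHcy. Patl2 (chr2:122120108-122186189, GRCm38, minus strand) had 0.907, 1.61 and 1.99 FPKM in F1-Control and 8.10, 6.10 and 1.54 FPKM in F1-HHcy. Its groups overlapped, because F1-HHcy replicate 3 lay between the controls. The log2 fold change of Patl2 was 1.15 (SE 0.45, limma, adjusted p = 0.189). Its call did not hold when F1-HHcy replicate 1 was left out (0.79), nor without F1-HHcy replicate 2 (0.97), F1-Control replicate 1 (0.97), replicate 2 (1.20) or replicate 3 (1.29), while without F1-HHcy replicate 3 the value was 1.71.

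The members that were most abundant in control ovaries at Pd3 moved the other way. Ybx2 (chr11:69935796-69941605, GRCm38, plus strand) was at 125, 122 and 127 FPKM in F1-Control and at 39.2, 61.2 and 88.2 FPKM in F1-HHcy. The controls spanned a few FPKM, whereas the F1-HHcy libraries spread over a wide range below them. The log2 fold change was -1.05 (SE 0.26, limma, adjusted p = 0.0706). Leaving out each library in turn gave -1.33 to -0.76, the former without F1-HHcy replicate 3. Lsm14b (chr2:180024987-180035465, GRCm38, plus strand) was at 115, 112 and 123 FPKM in F1-Control and at 61.1, 71.3 and 88.3 FPKM in F1-HHcy. Its log2 fold change was -0.67 (SE 0.14, limma, adjusted p = 0.0536), which became -0.55 without F1-HHcy replicate 1, below the size needed for a call, and -0.81 without F1-HHcy replicate 3.

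Cpeb1 (chr7:81347026-81455465, GRCm38, minus strand) was the member that was not called at Pd3. It held 21.6, 20.6 and 19.9 FPKM in F1-Control and 10.6, 13.0 and 18.4 FPKM in F1-HHcy, again without overlap. The log2 fold change of -0.57 (SE 0.18, limma, adjusted p = 0.133) fell just short of the size needed. Without F1-HHcy replicate 3 it was -0.77 and without F1-Control replicate 3 it was -0.59, past the threshold for a call in both cases. The smallest fall with a library left out was -0.40.

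**Figure D2:**
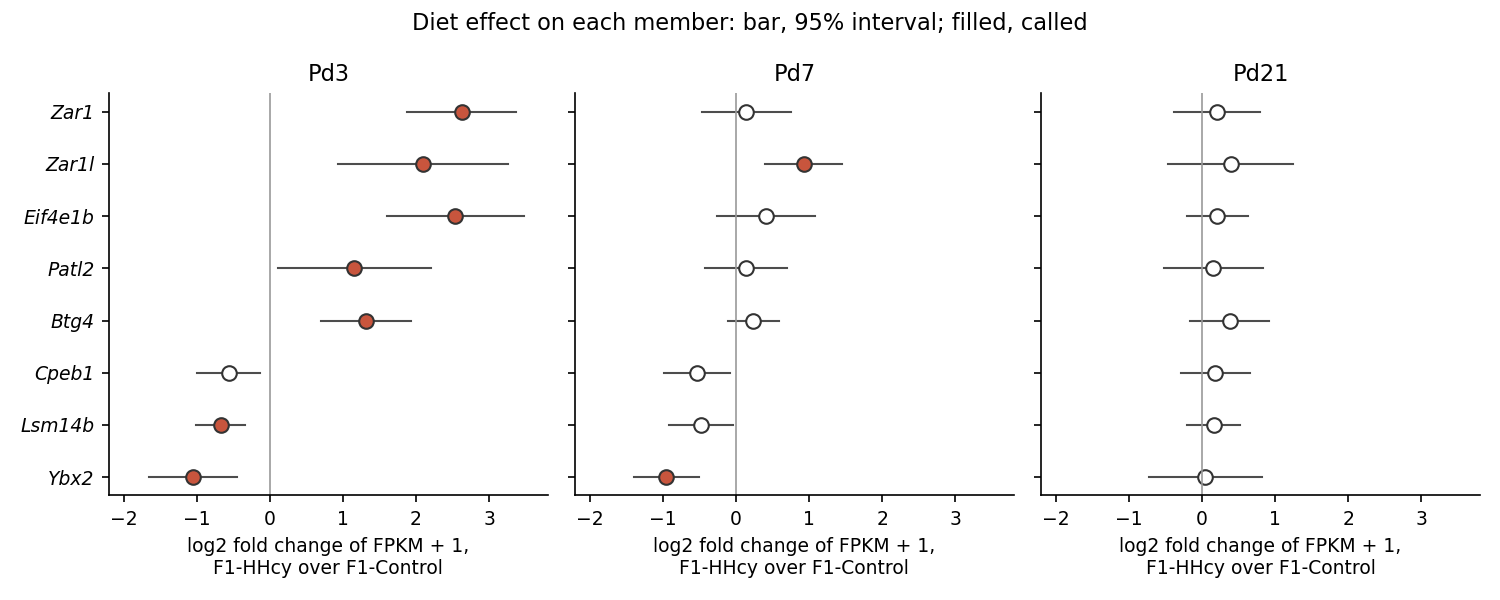
Log2 fold change of FPKM + 1 (x axis, F1-HHcy over F1-Control) of each member at Pd3, Pd7 and Pd21, with bars for the 95% interval from limma and filled points for called members. At Pd3, 5 members lie to the right of 0 and 3 to the left, at Pd7 only Zar1l and Ybx2 are filled, and at Pd21 all 8 intervals cross 0.

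The falls of the abundant members and the rises of the others were of like size in FPKM at Pd3. The summed level of the 8 members was 283 ± 12.9 FPKM in F1-Control and 279 ± 14.7 FPKM in F1-HHcy (SD, n = 3). The make-up of the sum differed. In F1-Control at Pd3, Ybx2 took 44.0% ± 1.51 and Lsm14b 41.1% ± 0.486 of the summed FPKM, with Zar1 at 3.54% ± 1.09 and Eif4e1b at 1.77% ± 0.654. In F1-HHcy at Pd3, Ybx2 took 22.7% ± 9.90, Lsm14b 26.5% ± 6.20, Zar1 24.4% ± 7.95 and Eif4e1b 12.7% ± 5.59. At Pd7 the F1-Control sum was 282 ± 31.2 FPKM, with 20.2% ± 5.55 from Ybx2 and 26.9% ± 5.20 from Zar1.

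**Figure D3:**
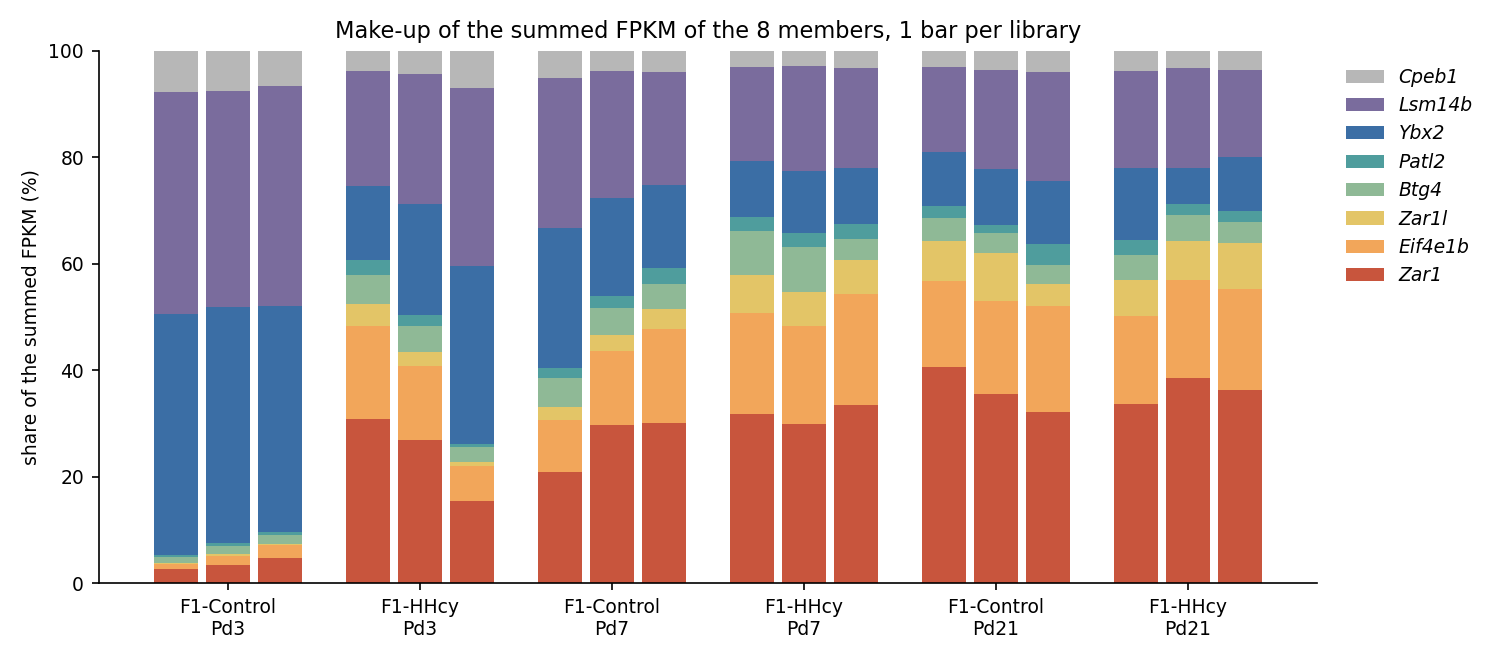
Share of the summed FPKM of the 8 members (y axis, percent) taken by each member, with 1 bar per library in the order of replicates 1 to 3 within each group. Ybx2 and Lsm14b fill most of each F1-Control bar at Pd3 (means of 44.0% and 41.1%), and Zar1 and Eif4e1b take larger shares in all other groups.

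The step from Pd3 to Pd7 in F1-Control ovaries gives the normal course of these genes within batch label 1. This step and the Pd3 diet effect share the F1-Control Pd3 libraries, so the values are given side by side and are not independent. In F1-Control, 5 members were called higher at Pd7 than at Pd3 and 3 lower, where 6.76% and 6.89% of the 14607 genes tested were called higher and lower, and all 8 had an adjusted p under 0.05, against 11.4% of all genes tested. Zar1 rose to 51.8, 91.6 and 88.0 FPKM, a log2 fold change of 2.82 (SE 0.33, limma, adjusted p = 0.000202). Eif4e1b rose to 23.9, 42.4 and 51.4 FPKM (2.72, SE 0.36, adjusted p = 0.000451). Zar1l reached 6.09, 9.17 and 11.4 FPKM (2.55, SE 0.45, adjusted p = 0.00276). Of these 2 control groups, 0 libraries at Pd3 and 3 at Pd7 reached 1 FPKM for Zar1l, which is counted among the 5 and the 8. Btg4 reached 13.6, 15.8 and 13.5 FPKM (1.61, SE 0.25, adjusted p = 0.0011), and Patl2 4.34, 6.66 and 8.67 FPKM (1.58, SE 0.39, adjusted p = 0.0195). For all 8 members no Pd7 control library overlapped the Pd3 control libraries. The share of all genes without overlap in this step was not computed.

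The other 3 members fell in F1-Control from Pd3 to Pd7. Ybx2 dropped to 65.3, 57.1 and 45.7 FPKM, a log2 fold change of -1.16 (SE 0.31, limma, adjusted p = 0.0279). Lsm14b dropped to 69.5, 72.9 and 62.2 FPKM (-0.77, SE 0.18, adjusted p = 0.0133) and Cpeb1 to 12.9, 11.9 and 11.5 FPKM (-0.73, SE 0.22, adjusted p = 0.0388). In the order of group means, F1-Control at Pd3 held the lowest level of Zar1, Zar1l, Eif4e1b, Btg4 and Patl2 and the highest level of Ybx2, Lsm14b and Cpeb1. For Zar1, Eif4e1b, Btg4, Ybx2 and Lsm14b, the only neighbours in this order that did not overlap were F1-Control at Pd3 and the group next to it. The next groups up, F1-HHcy at Pd3 and F1-Control at Pd7, overlapped for Zar1, Zar1l, Eif4e1b, Patl2 and Btg4.

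From Pd3 to Pd7 in F1-HHcy ovaries, 1 member was called higher and 2 lower. Zar1l was called higher, with 17.2, 13.3 and 22.6 FPKM at Pd7 (1.39, SE 0.45, limma, adjusted p = 0.0742), and Ybx2 (-1.05, SE 0.31, adjusted p = 0.0574) and Cpeb1 (-0.70, SE 0.22, adjusted p = 0.0642) were called lower. Of all genes tested, 5.76% were called higher and 6.03% lower in this step, and 5.48% had an adjusted p under 0.05, beside 0 of the 8 members, of which 5 had an unadjusted p under 0.05. Zar1 moved by 0.33 (SE 0.33, limma, adjusted p = 0.59) and Eif4e1b by 0.60 (SE 0.36, adjusted p = 0.334). The Zar1l call was lost without F1-HHcy Pd3 replicate 3 (0.77), and that of Cpeb1 without the same library (-0.49) or without F1-HHcy Pd7 replicate 2 (-0.51). Without F1-HHcy Pd3 replicate 1, Eif4e1b (0.89), Patl2 (0.93), Btg4 (0.71) and Lsm14b (-0.70) passed the threshold. Lsm14b also passed without F1-HHcy Pd3 replicate 2 (-0.59) or F1-HHcy Pd7 replicate 3 (-0.80), as did Btg4 (0.67 and 0.65).

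At Pd7, Zar1l was called higher in F1-HHcy and Ybx2 lower, with an adjusted p under 0.05 for both. Across the 13299 genes tested, 9.06% were called higher, 7.35% lower and 11.9% had an adjusted p under 0.05, and the groups did not overlap for 39%, beside 3 of the 8 members (Zar1l, Ybx2 and Cpeb1). Zar1l, at 6.09, 9.17 and 11.4 FPKM in F1-Control and 17.2, 13.3 and 22.6 FPKM in F1-HHcy, had a log2 fold change of 0.93 (SE 0.24, limma, adjusted p = 0.0354). This call was lost with all 18 libraries in 1 model (0.93, SE 0.45, limma, adjusted p = 0.167). Ybx2 was at 65.3, 57.1 and 45.7 FPKM in F1-Control and at 25.3, 23.8 and 37.1 FPKM in F1-HHcy (-0.95, SE 0.20, limma, adjusted p = 0.0165).

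Cpeb1 and Lsm14b were lower at Pd7 by less than the size needed for a call. Cpeb1 held 12.9, 11.9 and 11.5 FPKM in F1-Control and 7.56, 6.00 and 11.3 FPKM in F1-HHcy (-0.53, SE 0.20, limma, adjusted p = 0.106). Lsm14b held 42.1, 40.6 and 67.0 FPKM in F1-HHcy (-0.48, SE 0.20, limma, adjusted p = 0.133). In both, replicate 3 of F1-HHcy was the highest of its group, and without it the values were -0.76 for Cpeb1 and -0.71 for Lsm14b, past the threshold. Zar1 was at 76.7, 61.6 and 119 FPKM in F1-HHcy, overlapping its controls, with a difference of 0.14 (95% interval -0.47 to 0.75, limma, adjusted p = 0.754). For Eif4e1b the difference was 0.42 (interval -0.26 to 1.09), for Patl2 0.14 (-0.42 to 0.70) and for Btg4 0.24 (-0.11 to 0.58), and these intervals leave room for changes of either sign.

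The diet effects on 2 days were compared in a single model of the 18 libraries. For 3 members the Pd7 effect was called lower than the Pd3 effect, where 4.75% and 5.28% of genes were called higher and lower. For Zar1 the difference of log2 fold changes was -2.49 (SE 0.47, limma, adjusted p = 0.0281), and 0.411% of all genes tested had an adjusted p under 0.05. It was -2.12 for Eif4e1b (SE 0.51, adjusted p = 0.0759) and -1.08 for Btg4 (SE 0.35, adjusted p = 0.199). Zar1l (-1.16, SE 0.63, limma, adjusted p = 0.411) and Patl2 (-1.01, SE 0.56, adjusted p = 0.418) did not pass, but did without F1-HHcy Pd3 replicate 3 (-1.78 and -1.57). Patl2 also passed without F1-Control Pd7 replicate 1 (-1.24). For Ybx2 (0.10, SE 0.44), Cpeb1 (0.03, SE 0.30) and Lsm14b (0.19, SE 0.25) the difference between days was smaller than its SE.

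At Pd21 no member was called. Of the 13350 genes tested, 0.0824% were called higher and 5.06% lower, 2.23% had an adjusted p under 0.05 and 10.5% had groups without overlap, beside 0 of the 8 members in each case by limma, with 0 at an unadjusted p under 0.05 and 0 called by limma-voom. Zar1 was the most abundant member on this day, at 204, 139 and 101 FPKM in F1-Control and 168, 140 and 186 FPKM in F1-HHcy. Eif4e1b was at 81.7, 68.8 and 62.4 FPKM and at 83.1, 67.1 and 98.2 FPKM in the same order of groups. Lsm14b, at 79.6, 72.8 and 64.2 FPKM against 90.4, 68.8 and 83.8 FPKM, overlapped in the same way. The log2 fold changes ran from 0.05 for Ybx2 (95% interval -0.73 to 0.82) to 0.39 for Zar1l (-0.46 to 1.25). Btg4 (0.38, SE 0.24) passed the threshold without F1-Control Pd21 replicate 1 (0.62), in which it was at 22.0 FPKM against 15.1 and 11.2 FPKM in the other controls.

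From Pd7 to Pd21, across the batch labels, 3 members were called higher in each diet, and no member was lower at an unadjusted p under 0.05. In F1-Control these were Zar1l (1.47, SE 0.45, limma, adjusted p = 0.0209), Zar1 (0.91, SE 0.33, adjusted p = 0.0449) and Eif4e1b (0.90, SE 0.36, adjusted p = 0.0691), where 14.5% and 9.48% of all genes were called higher and lower. In F1-HHcy they were Cpeb1 (0.93, SE 0.22, adjusted p = 0.00985), Lsm14b (0.72, SE 0.18, adjusted p = 0.0131) and Zar1 (0.98, SE 0.33, adjusted p = 0.0459), where 8.22% and 9.68% of all genes were called. The control calls of Zar1 (0.65 and 0.65) and Eif4e1b (0.59 and 0.79) were lost without F1-Control Pd7 replicate 1 or F1-Control Pd21 replicate 1. In F1-HHcy, Zar1l (1.12), Ybx2 (0.82) and Eif4e1b (0.97) passed without F1-HHcy Pd7 replicate 3, and Zar1l (1.10) and Ybx2 (1.05) without F1-HHcy Pd21 replicate 2. The Pd21 diet effect was higher than the Pd7 effect for Ybx2 (1.00, SE 0.44, adjusted p = 0.228), Cpeb1 (0.72, SE 0.30, adjusted p = 0.208) and Lsm14b (0.64, SE 0.25, adjusted p = 0.177), where 5.55% and 9.72% of all genes were called higher and lower. None of these 3 calls held with every single library left out, and their lowest values were then 0.69, 0.54 and 0.51.

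To set the members against another oocyte transcript of the same library, each was divided by Ddx4, the germ cell RNA helicase also called MVH or Vasa. Ddx4 itself was at 20.9, 21.9 and 20.6 FPKM in F1-Control and 10.3, 16.1 and 16.4 FPKM in F1-HHcy at Pd3. At Pd7 it was at 16.2, 18.4 and 13.2 FPKM against 6.84, 5.85 and 6.95 FPKM (-1.16, SE 0.16, limma, adjusted p = 0.00382). The log2 ratio of Zar1 to Ddx4 at Pd3 was -1.04 ± 0.47 in F1-Control and 2.15 ± 0.85 in F1-HHcy, and that of Eif4e1b was -1.92 ± 0.52 and 1.18 ± 1.05 (SD, n = 3). Relative to Ddx4, 5 members were higher and Ybx2 lower without overlap at Pd3, while Cpeb1 (difference -0.0040) and Lsm14b (-0.11) overlapped. Each of the 6 differences had an exact permutation p of 0.1 (two-sided), the smallest that 3 against 3 libraries allow, so none could reach the threshold. How many of all genes separate in this ratio was not computed, so the Pd3 count describes the libraries and is not a result about the members.

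At Pd7, 7 members were higher relative to Ddx4 without overlap, and Ybx2 overlapped (difference 0.20, exact permutation p = 0.4). Ddx4 itself was lower in F1-HHcy at Pd3 and Pd7, so a gene with unchanged FPKM also comes out higher in this ratio. Cpeb1 and Lsm14b, lower in FPKM at Pd7, were among these 7. The share of all genes without overlap in this ratio was not computed for any day, so the Pd7 count is not a result about the members either. At Pd21 no member differed without overlap. These counts depended on the reference and, at Pd3, on the pseudocount. With a pseudocount of 0.1 FPKM, Patl2 overlapped relative to Ddx4 at Pd3 (exact permutation p = 0.2). With Dazl, another germ cell RNA-binding gene, in place of Ddx4, 2 members were higher at Pd7 and 0 lower at Pd3, where Patl2 overlapped. With the mean of the growing oocyte markers, 2 were higher and 3 lower at Pd3, and 4 higher and 1 lower at Pd7. The direction of Cpeb1 at Pd3 turned with the reference, from a difference of 0.62 relative to Dazl to -1.74 relative to the growing oocyte markers, without overlap in either case (exact permutation p = 0.1 for both). Ybx2 and Lsm14b also had positive differences at Pd3 relative to Dazl (0.13 and 0.51, with overlap) and negative ones relative to the growing oocyte markers (-2.22 and -1.84, without overlap).

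Across the 18 libraries the members fell into 2 sets by their log2(FPKM + 1). Zar1 and Eif4e1b had a Pearson r of 0.991, and Zar1, Zar1l, Eif4e1b, Patl2 and Btg4 had an r of 0.879 to 0.991 with each other. Ybx2, Cpeb1 and Lsm14b had an r of 0.849 to 0.961 with each other and of -0.751 to -0.374 with the first set. These values describe libraries that fall into 6 groups of day and diet and are given without a test. Among 14606 other genes, the closest to Zar1 after Eif4e1b were Miox (0.987) and Gdf9 (0.980), which encodes an oocyte growth factor. The closest to Zar1l was Mos (0.988), the kinase of meiotic arrest, then Fbxw19 (0.987) and Nlrp9a (0.986). For Eif4e1b they were Zar1, Klf17 (0.988) and Kpna7 (0.985), for Btg4 Ftdc2 (0.986), Cpsf4l (0.981) and Oosp1 (0.976), and for Patl2 Cdo1 (0.968), Dnmt1 (0.958) and Gm38794 (0.957). Ybx2 was closest to Asb8 (0.965), Esrp1 (0.965) and Ptpn18 (0.958), Lsm14b to Gatad2a (0.966), Cpeb1 (0.961) and Arhgef16 (0.959), and Cpeb1 to Lsm14b, Gatad2a (0.945) and Uchl1 (0.939).

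Because members of a set moved together, the sequence around their start sites is shown. RefSeq (GRCm38.p6) gave windows of 250 bases before to 50 after the start site for 7 members, with 2 windows for Ybx2. Eif4e1b was not matched. These RefSeq start sites differ for some members from the ends of the GENCODE genes given above. The windows of Btg4 (chr9:51115751-51116050) and Cpeb1 (chr7:81454709-81455008) lie inside the GENCODE genes, as do the RefSeq start sites of Zar1 and Ybx2. GC content was 39.0% for Btg4, 44.3% for Zar1l, 58.7% for Zar1 and 60.7% for Patl2, and 72.7% for Cpeb1, 74.3% for Lsm14b and 75.3% and 78.0% for the Ybx2 windows, beside a median of 52.7% over all 32851 windows. Motifs were searched on both strands. TAATTG, a form of the NOBOX element, was found in 8.00% of all windows and in 1 member, Zar1l. TGATTG, bound by LHX8, was found in 14.0% of all windows and in Zar1l and Patl2. CAGCTG, a form of the E-box that FIGLA and SOHLH1 bind, was found in 16.3% and in Zar1. TAATTA was found in 5.29% of all windows and in no member. The general E-box CANNTG, which includes CAGCTG, was in 72.3% of all windows and in all 7 members matched, CCAAT, which overlaps TGATTG in Zar1l and Patl2, was in 37.4% and in Btg4, Lsm14b, Patl2, Ybx2 and Zar1l, and TATAAA was in 13.6% and in Cpeb1.

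The 250 bases before the start sites of Zar1l (chr5:150518160-150518409, minus strand) and Patl2 (chr2:122186190-122186439, minus strand), from the set that was higher at Pd3, and of Lsm14b (chr2:180024737-180024986, plus strand), from the set that was lower, are given as examples. Their full windows held 44.3%, 60.7% and 74.3% GC, beside quartiles of 45.7% and 61.7% over all windows. A difference in GC content between the sets was not tested. The bases are written 5′ to 3′, and capitals mark TAATTG (read here as CAATTA from the other strand) and TGATTG.
Zar1l: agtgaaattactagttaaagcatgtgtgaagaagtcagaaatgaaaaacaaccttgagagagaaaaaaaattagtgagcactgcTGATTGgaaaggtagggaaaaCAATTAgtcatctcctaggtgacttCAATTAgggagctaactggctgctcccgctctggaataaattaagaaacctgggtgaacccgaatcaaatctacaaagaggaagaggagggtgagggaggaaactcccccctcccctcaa
Patl2: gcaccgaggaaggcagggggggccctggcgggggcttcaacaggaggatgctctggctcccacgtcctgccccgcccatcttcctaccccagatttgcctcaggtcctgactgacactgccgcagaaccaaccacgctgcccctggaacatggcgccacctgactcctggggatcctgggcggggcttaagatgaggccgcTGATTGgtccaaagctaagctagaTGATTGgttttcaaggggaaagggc
Lsm14b: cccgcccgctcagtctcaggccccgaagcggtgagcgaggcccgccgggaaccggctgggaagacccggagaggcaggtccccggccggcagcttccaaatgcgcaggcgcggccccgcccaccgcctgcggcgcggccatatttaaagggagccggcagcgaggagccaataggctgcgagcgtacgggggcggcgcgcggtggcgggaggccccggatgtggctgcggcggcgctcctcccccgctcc
In Zar1l the TAATTG matches began 145 and 120 bases before the start site and the TGATTG match 166 bases before it, and in Patl2 the TGATTG matches began 49 and 25 bases before it. The Zar1 match to CAGCTG began 25 bases before the RefSeq start site, at a place inside the GENCODE gene. It is shown in capitals with its surroundings (chr5:72581092-72581121, minus strand).
Zar1: cagcgtggagggCAGCTGggctgcgctgat
A match describes letters in the window and does not show that a factor bound there.

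Most members have relatives that are expressed in many cell types. Of 15 such genes (Ybx1, Ybx3, Cpeb2 to Cpeb4, Eif4e, Eif4e2, Eif4e3, Lsm14a, Patl1, Btg1 to Btg3, Tob1 and Tob2), all were tested on each day, 0 were called by limma at Pd3 and at Pd21 (2 and 0 had an unadjusted p under 0.05), and 1 was called at Pd7. Their median log2 fold change at Pd3 was -0.13, beside -0.03 over all genes tested. Ybx3, a widely expressed Y-box gene, came nearest, at 133 ± 7.36 FPKM in F1-Control and 89.7 ± 0.596 FPKM in F1-HHcy (-0.56, SE 0.09, limma, adjusted p = 0.0303). By contrast with Eif4e1b, the general cap-binding gene Eif4e stood at 15.8 ± 0.262 and 15.6 ± 1.08 FPKM at Pd3 (-0.02, 95% interval -0.25 to 0.21). Lsm14a, at 33.7 ± 2.24 and 35.0 ± 1.92 FPKM, had a difference of 0.05 (-0.18 to 0.28). At Pd7 Eif4e3 was called higher, from 3.00 ± 0.878 to 6.59 ± 2.05 FPKM (0.91, SE 0.22, adjusted p = 0.0299). Among the relatives of Btg4, Btg2, an immediate early gene, was at 226 FPKM in F1-HHcy replicate 3 at Pd3 and at 20.9 and 23.2 FPKM in the other 2.

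**Figure D4:**
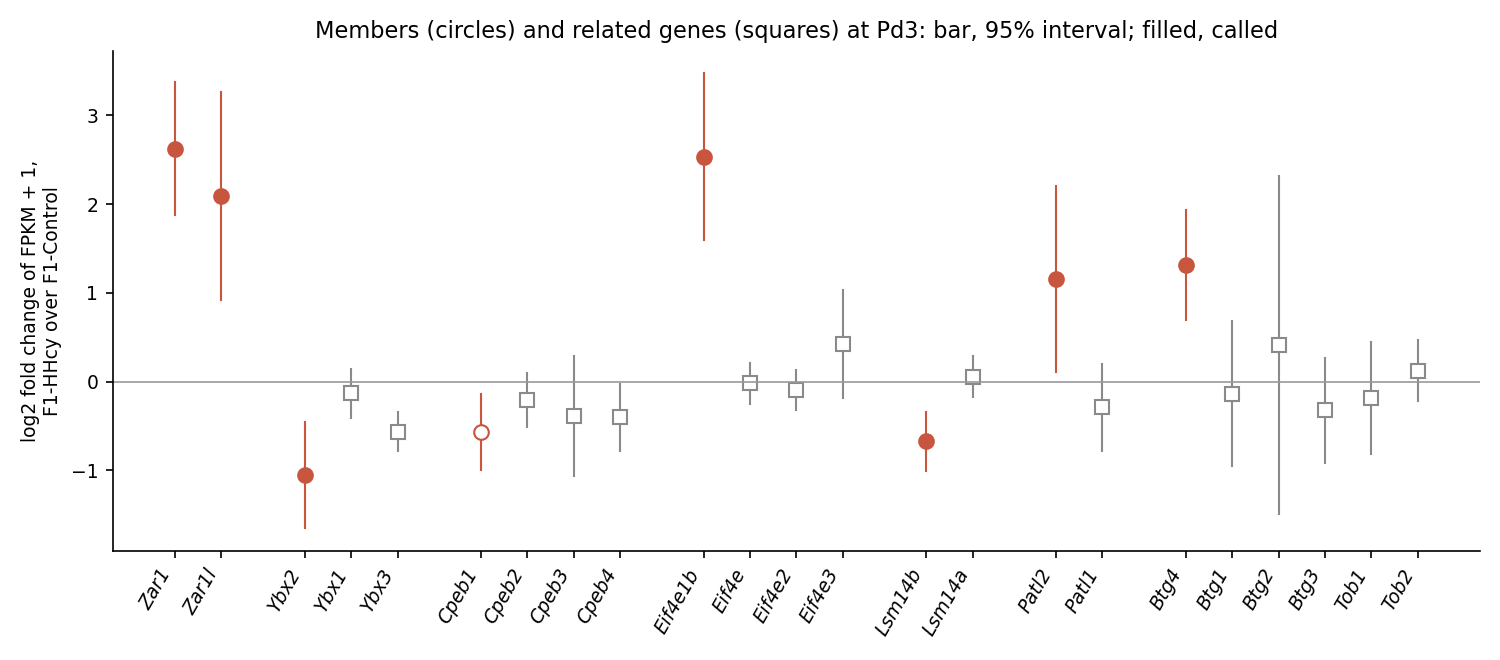
Log2 fold change of FPKM + 1 at Pd3 (y axis, F1-HHcy over F1-Control) of the members (red circles) and the 15 related genes (grey squares), grouped by family, with bars for the 95% interval from limma and filled symbols for called genes. Called members reach from -1.05 (Ybx2) to 2.62 (Zar1), while no square is filled.

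In the wider machinery, 1 gene was called at Pd3 over the 4 lists that follow. Of all genes tested at Pd3, 5% were called higher and 4.74% lower, and at Pd21 0.0824% and 5.06%. Of 16 genes of cytoplasmic polyadenylation and poly(A) binding, 15 were tested, 1 was called higher and 0 lower. The called gene was Pabpc1l, the embryonic poly(A)-binding protein, at 0.207 ± 0.162 FPKM in F1-Control and 4.31 ± 2.87 FPKM in F1-HHcy (1.97, SE 0.42, limma, adjusted p = 0.0534), which entered the test only through the F1-HHcy libraries. Pabpn1 (-0.40, SE 0.12) and Pabpc4 (-0.37, SE 0.12) had the next smallest p and were not called. Of 9 genes of cap binding and its regulation, 8 of repression and decapping and 13 of the CCR4-NOT and PAN deadenylases, all were tested and 0 were called by limma at Pd3 and at Pd21, with 1, 2 and 1 at an unadjusted p under 0.05 at Pd3 and 0 in each list at Pd21. Ddx6, the RNA helicase of repressed particles, was at 53.2 ± 2.35 and 42.8 ± 7.42 FPKM at Pd3 (-0.32, SE 0.14, limma, adjusted p = 0.218). The deadenylase subunit Cnot9 was at 24.9 ± 0.653 and 21.0 ± 0.715 FPKM (-0.23, SE 0.09, limma, adjusted p = 0.189).

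At Pd7 the polyadenylation list had 3 genes called higher and 0 lower of 16 tested: Pabpn1l (1.19, SE 0.38, adjusted p = 0.0698), Pabpc1l (0.78, SE 0.34, adjusted p = 0.149) and Pabpn1 (0.63, SE 0.24, adjusted p = 0.107). Over all genes tested, 9.06% were called higher and 7.35% lower at Pd7, and 5% and 4.74% at Pd3. Of the 9 cap-binding genes, Eif4ebp2, an inhibitor of the cap-binding protein, was called higher (0.61, SE 0.24, adjusted p = 0.122). The repression and deadenylase lists had 0 called, and their lowest p values belonged to Dcp1a (0.49, SE 0.17, limma, adjusted p = 0.084) and Cnot7 (0.49, SE 0.15, adjusted p = 0.0588). Among 15 other germ cell mRNA regulators, 12 were tested at Pd3 with 1 called lower, and 13 at Pd7 with 2 called higher and 4 lower. Dazl, which drives translation of germ cell mRNA, was at 49.1, 63.4 and 42.6 FPKM in F1-Control and 13.7, 20.5 and 36.8 FPKM in F1-HHcy at Pd3 (-1.18, SE 0.32, adjusted p = 0.0926), without overlap. At Pd7 Elavl2 (-0.60, SE 0.16, adjusted p = 0.0387), Nanos1 (-0.64, SE 0.19, adjusted p = 0.053) and Dazl (-0.58, SE 0.18, adjusted p = 0.0638) were lower, as was Rbpms2, and Nanos2 and Msi2 were called higher, the last 3 being named after their values were seen. No gene of these 5 lists was called at Pd21, where 0.0824% and 5.06% of all genes tested were called higher and lower.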

How the data were processed

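Whole-ovary poly(A) RNA of the 18 libraries was sequenced with a stranded kit. Per the labels, FastQC 0.11.9, Trimmomatic 0.39, STAR 2.7.9a, featureCounts 2.0.1 with Subread, and DESeq2 1.36.0 are named with the builds GRCm38 and mm10, without roles, and the strand setting of counting is not given in the sources used here. The authors deposited 1 table of FPKM values per library. These steps from fragments to FPKM scale each gene by its length and by the library total, so a shift in a few very abundant transcripts, such as hemoglobin, moves all others. Poly(A) selection may recover transcripts with short tails less well, which was not tested.

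Whole fragment numbers were recovered from the FPKM steps for 27294 of 27294 genes above 0 in at least 3 libraries (tolerance 0.01), and served only for depths and for 1 alternative. A gene was tested where 3 or more libraries of the fit reached 1 FPKM, with limma 3.58.1 (R 4.3.3; variance trend on the mean) on log2(FPKM + 1), which understates the change of low genes. Diet effects were fitted per day, and day effects and differences between days in 1 model of 6 groups. A call needed both a log2 fold change over 0.58 in size and, before adjustment, p under 0.05. Ratios to Ddx4 were compared by exact permutation over libraries. The limma scripts were tested on simulated data. Positions are from GENCODE M21 and promoters from RefSeq, both on GRCm38. No exon of a member overlaps an exon of another gene there.

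The members and lists were chosen with earlier results of these data known. Text names all members, all relatives, the 3 genes of smallest p per pathway list and day (a selection of them with values), and the 3 genes most like each member by Pearson r. Replicate numbers were checked for pairing and did not pair the libraries. Alternatives were another pseudocount, no filter, median-ratio scaling, leaving out mitochondrial and hemoglobin genes, limma-voom on the recovered fragments, a replicate block, 1 model of all libraries, and leaving out each library.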

Additional observations from a re-analysis of the deposited data

Results flagged for a closer look

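Zar1 differed between days in its response to the maternal diet: the Pd7 log2 fold change minus the Pd3 one was -2.49 (SE 0.47, limma, adjusted p = 0.0281) in the model of all 18 libraries. The value ran from -2.82 to -2.28 with each Pd3 or Pd7 library left out in turn.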

How the results depend on the processing

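Of 984 single-gene values recomputed under an alternative, 878 kept their direction and their side of the threshold, 36 lost a call, 32 gained one and 38 changed sign, all 38 of them from values that were not called. With an adjusted p under 0.05 as the only threshold, the members higher at Pd3 numbered 3 and those lower 0. At Pd7 the members called higher numbered 0 with all 18 libraries in 1 model (Zar1l, 0.93), and those called lower 2 with a pseudocount of 0.1 FPKM and 2 with limma-voom on recovered fragments (Cpeb1, -0.59 and -0.59). Median-ratio scaling gave 5 members called higher from Pd7 to Pd21 in F1-HHcy. At Pd3, Cpeb1 was called lower with a pseudocount of 0.1 FPKM (-0.60), without mitochondrial and hemoglobin genes (-0.59) and with limma-voom (-0.60), and Patl2 was not called without the low-value filter or with limma-voom (1.58). Lsm14b passed from Pd3 to Pd7 in F1-HHcy with the smaller pseudocount (-0.58) and limma-voom (-0.58). The Pd7 minus Pd3 difference of Zar1l passed with the smaller pseudocount (-2.09), and the Pd21 minus Pd7 difference of Ybx2 did not without the filter (1.00). The difference of diet effects changed sign near 0 for Cpeb1 under median-ratio scaling (-0.0017, Pd7 minus Pd3) and for Patl2 under limma-voom (-0.0009, Pd21 minus Pd7). In place of Ddx4, the growing oocyte markers gave 2 members higher and 3 lower at Pd3 and 4 higher and 1 lower at Pd7, and Dazl gave 0 lower at Pd3 and 2 higher at Pd7. The causes of these shifts were not tested.

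The replicate numbers did not pair the libraries: correlations of same-numbered libraries of a day ran from -0.338 to 0.0872, and not every library was closest to its own number. With a replicate block, Patl2 at Pd3 lost its call (1.15), which left 4 members called higher, and no other call changed. With each library left out in turn, the count of members called ran from 1 to 3 lower at Pd3, 1 to 3 lower at Pd7, 0 to 1 higher at Pd21, 0 to 4 higher and 1 to 3 lower from Pd3 to Pd7 in F1-HHcy, 1 to 3 higher from Pd7 to Pd21 in F1-Control and 3 to 6 in F1-HHcy. The count of differences of diet effects ran from 3 to 5 lower for Pd7 minus Pd3 and from 0 to 3 higher for Pd21 minus Pd7. Values that were not called and changed sign with a library left out were, at Pd7, Zar1 (-0.12 to 0.35) and Patl2 (-0.088 to 0.34), and at Pd21, Zar1 (-0.040 to 0.46), Zar1l (-0.075 to 0.65), Ybx2 (-0.26 to 0.47) and Patl2 (-0.17 to 0.34). Across days they were Zar1 from Pd3 to Pd7 in F1-HHcy (-0.0013 to 0.54) and Btg4 from Pd7 to Pd21 in F1-Control (-0.12 to 0.34). Among differences of diet effects they were, for Pd7 minus Pd3, Ybx2 (-0.20 to 0.38), Cpeb1 (-0.19 to 0.23) and Lsm14b (-0.033 to 0.33), and for Pd21 minus Pd7, Zar1 (-0.18 to 0.33), Eif4e1b (-0.43 to 0.11), Patl2 (-0.31 to 0.24) and Btg4 (-0.081 to 0.38). With 3 libraries a group, the SE at Pd3 was 0.14 to 0.50, and a call also needed a log2 fold change above 0.58 in size.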
